A study of Mus musculus with 32 samples.

Results

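The comparison described here sets mouse MLL-AF9 leukaemia cells that lack their own PRDM16 and carry added full-length PRDM16 (f-PRDM16) beside wild-type leukaemia cells that carry an empty vector. Its members are 6 of the 32 samples of the series, 3 in each group, chosen by the genotype and vector given in the labels. The question is what a high level of full-length PRDM16 changes beyond the wild-type state. MLL-AF9 is a fusion oncogene that turns blood progenitors into acute myeloid leukaemia. The study took leukaemia cells directly from sick mice, without culture, in 4 groups of 3, all of which carry MLL-AF9. They were wild type with empty vector (WT+EV), PRDM16 knockout with empty vector (KO+EV), knockout with f-PRDM16 (KO+f) and knockout with the short form, s-PRDM16 (KO+s). The series also holds sorted haematopoietic stem cells, which were not used here. KO+f and WT+EV differ in 2 ways at once, the lost endogenous gene and the added form, and these cannot be told apart within this pair. KO+EV and KO+s values are therefore given beside many of the main ones. Where KO+EV is not given, a difference from WT+EV may be present there too. The promoter that drives the vector, the number of donors and the clonality of the leukaemias are not given in the sources used here. P-values therefore reflect how these 3 libraries of a group varied, which may be technical.

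PRDM16 is a zinc-finger transcription factor that keeps haematopoietic stem cells in number and, in another tissue, drives the brown fat programme. The full-length form carries an N-terminal PR domain, related to histone methyltransferase domains, which the short form lacks. MLL-AF9 keeps a set of developmental regulators switched on, among them HOXA9 and MEIS1, and holds myeloid cells at an immature stage. Neutrophils and monocytes that do mature fill their granules in sequence, first with primary granule enzymes and later with secondary and tertiary granule proteins.

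The 6 libraries held 16353584 to 21847257 counts. All 9 myeloid leukaemia markers were detected in every group, with a summed level of 3840.0 to 4418 CPM (counts scaled to library size) in WT+EV and 6176 to 9440.0 CPM in KO+f. The largest of them, Mpo, stood at 1039, 1649 and 993 CPM in WT+EV and 3691, 7131 and 3773 CPM in KO+f. At an edgeR adjusted p under 0.05, 0 of the 9 were higher in KO+f and 2, Itgam and Fcgr3, were lower. Over all tested genes the shares were 6.11% higher and 3.86% lower. The higher sum is therefore not a rise of the set. With 1 of the 6 libraries left out at a time, Itgam lost its call in 4 fits and Fcgr3 in 3. T- and NK-cell markers summed to at most 4.57 CPM, and 4 of 7 erythroid markers, all globin genes, were listed at 0. Mature neutrophil markers summed to 3227, 2906 and 10480.0 CPM in WT+EV and to 933, 1340.0 and 1502 CPM in KO+f. The WT+EV replicate 3 library thus stood apart from the others of its group in this class. The KO+f replicate 3 library stood apart over all genes. It lay at -1.86 on the first principal component, which held 47.5% of the variance, against 28.9 and 41.7 for the other KO+f libraries and -40.8 to -36.3 for WT+EV. In bulk samples, fewer cells of a type and less RNA per cell cannot be told apart.

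Prdm16 itself was read at 331, 234 and 236 CPM in KO+f and at 0.991, 0.723 and 0.424 CPM in WT+EV. This is 16992 counts against 40, a ratio of 385 (95% interval 283 to 540, counting error only). The log2 difference was 8.57 ± 0.34 (SE, n = 3 per group; edgeR quasi-likelihood F test, Benjamini-Hochberg adjusted p = 1.5e-07). KO+EV held 0, 2 and 1 counts, and KO+s stood at 312, 241 and 192 CPM. The add-back therefore lay far above the wild-type level in every library, and the full-length and short forms were added at levels that overlapped. Counts over the whole gene separate neither the forms nor the vector's transcript from the endogenous one. None of the other 6 tested PRDM family genes was called, with log2 differences from -0.65 to 0.40. At an unadjusted p under 0.05, 3 of the 7 family genes were reached, Prdm16 included, and DESeq2 called Prdm16 and, lower, Prdm15.

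Of 12958 genes tested, 1292 (9.97%) differed between KO+f and WT+EV at an adjusted p under 0.05, which is what called means below. In KO+f, 792 genes (6.11%) were higher and 500 (3.86%) were lower. The higher genes moved further: their median log2 difference was 1.495, against -0.93 for the lower ones, and 82 of the 100 genes that differed by at least 4 on the log2 scale were higher. Without the KO+f replicate 3 library 711 genes were called higher and 360 lower. Leaving out any one of WT+EV replicate 1, WT+EV replicate 3, KO+f replicate 1 or KO+f replicate 2 lowered the total to between 559 and 663. The median over all tested genes was 0.00. The KO+f and WT+EV libraries did not overlap in 4134 tested genes (31.9%) and in 1284 of the 1292 called ones. Lack of overlap is therefore given below as a description and adds little to a call.

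**Figure D1:**
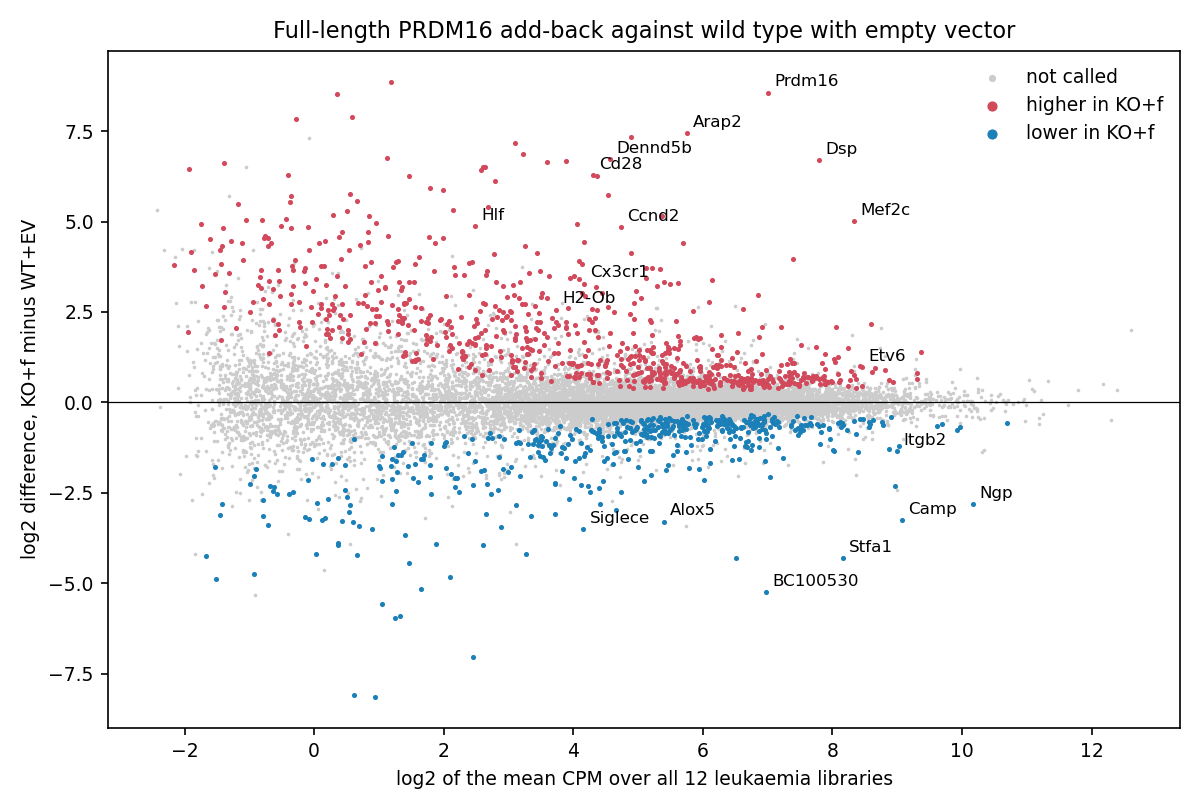
Log2 difference between KO+f and WT+EV (vertical axis) against log2 of the mean CPM over all 12 leukaemia libraries (horizontal axis), 1 point per tested gene, with called genes in red (792 higher in KO+f) and blue (500 lower). Red points reach further from 0 than blue ones, and Prdm16, Mef2c and Dsp are high at the upper edge while Ngp, Camp and Stfa1 lie at the lower edge among well-read genes.

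Among called genes with a mean log2 CPM of at least 3 over all 12 libraries and no overlap between the groups, the largest rises were in genes almost unread in wild-type leukaemia. A rank by log2 difference favours such genes, and both conditions use the KO+f libraries, so their levels are given as a description only. Dsp, which encodes the desmosome protein desmoplakin, stood at 373, 355 and 158 CPM in KO+f and at 1.22, 3.41 and 3.82 CPM in WT+EV, a log2 difference of 6.69 ± 0.95 (adjusted p = 0.00279). Arap2, a GTPase-activating protein for Arf proteins, stood at 87.1, 126 and 46.0 CPM against 0.816, 0.310 and 0.377 CPM, a difference of 7.45 ± 0.97 (adjusted p = 0.00172). Dennd5b, a Rab exchange factor, was the most even of the set, with 28.1, 21.6 and 29.2 CPM against 0.291, 0.103 and 0.330 CPM and a difference of 6.73 ± 0.31 (adjusted p = 4.88e-07). In all of these genes, which were picked for lack of overlap, the lowest KO+f library lay many times above the highest WT+EV library. The same held for Cd28, a co-stimulatory receptor best known from T cells, at 32.7, 30.6 and 14.8 CPM against 0.117, 0.568 and 0.283 CPM (difference 6.29 ± 0.46, adjusted p = 6.37e-05). It held too for Tshr, the thyrotropin receptor, at 52.5, 43.3 and 12.4 CPM against 0.408, 0.929 and 1.60 CPM (difference 5.16 ± 0.67, adjusted p = 0.00172). The RNA uridylyltransferase gene Zcchc11 rose by 5.75 ± 0.66 (adjusted p = 0.00122). Strc (stereocilin), Nmral1, Dnajc6 (the clathrin-uncoating protein auxilin), Tmem178 and Myl10 (a myosin light chain) rose by between 6.25 and 7.35 on the log2 scale. For the protocadherin gene Pcdh11x, with 3 counts in all of WT+EV and 531 in KO+f, the ratio was 161 (95% interval 54.6 to 781, counting error only; adjusted p = 0.000191). All 12 of these genes stayed called when any one of the 6 libraries was left out.

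In each of the 12 genes every KO+s library also lay above every KO+EV library. The level these genes had to reach was a mean that includes the KO+s libraries, so a high KO+s level helped to choose them and is given as a description only. CPM of Dsp in KO+EV was 15.1, 2.65 and 0.469, and in KO+s 628, 535 and 576. Dennd5b was higher still with the short form, at 68.8, 78.7 and 57.1 CPM. Here the 2 add-backs differed (KO+f minus KO+s -1.37 ± 0.21, adjusted p = 0.00926). Pcdh11x differed likewise (-1.63 ± 0.39, adjusted p = 0.0413). For the other 10 the difference between the forms was not called, with estimates from -2.08 to 0.39. These comparisons share the KO+f libraries with the main one.

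**Figure D2:**
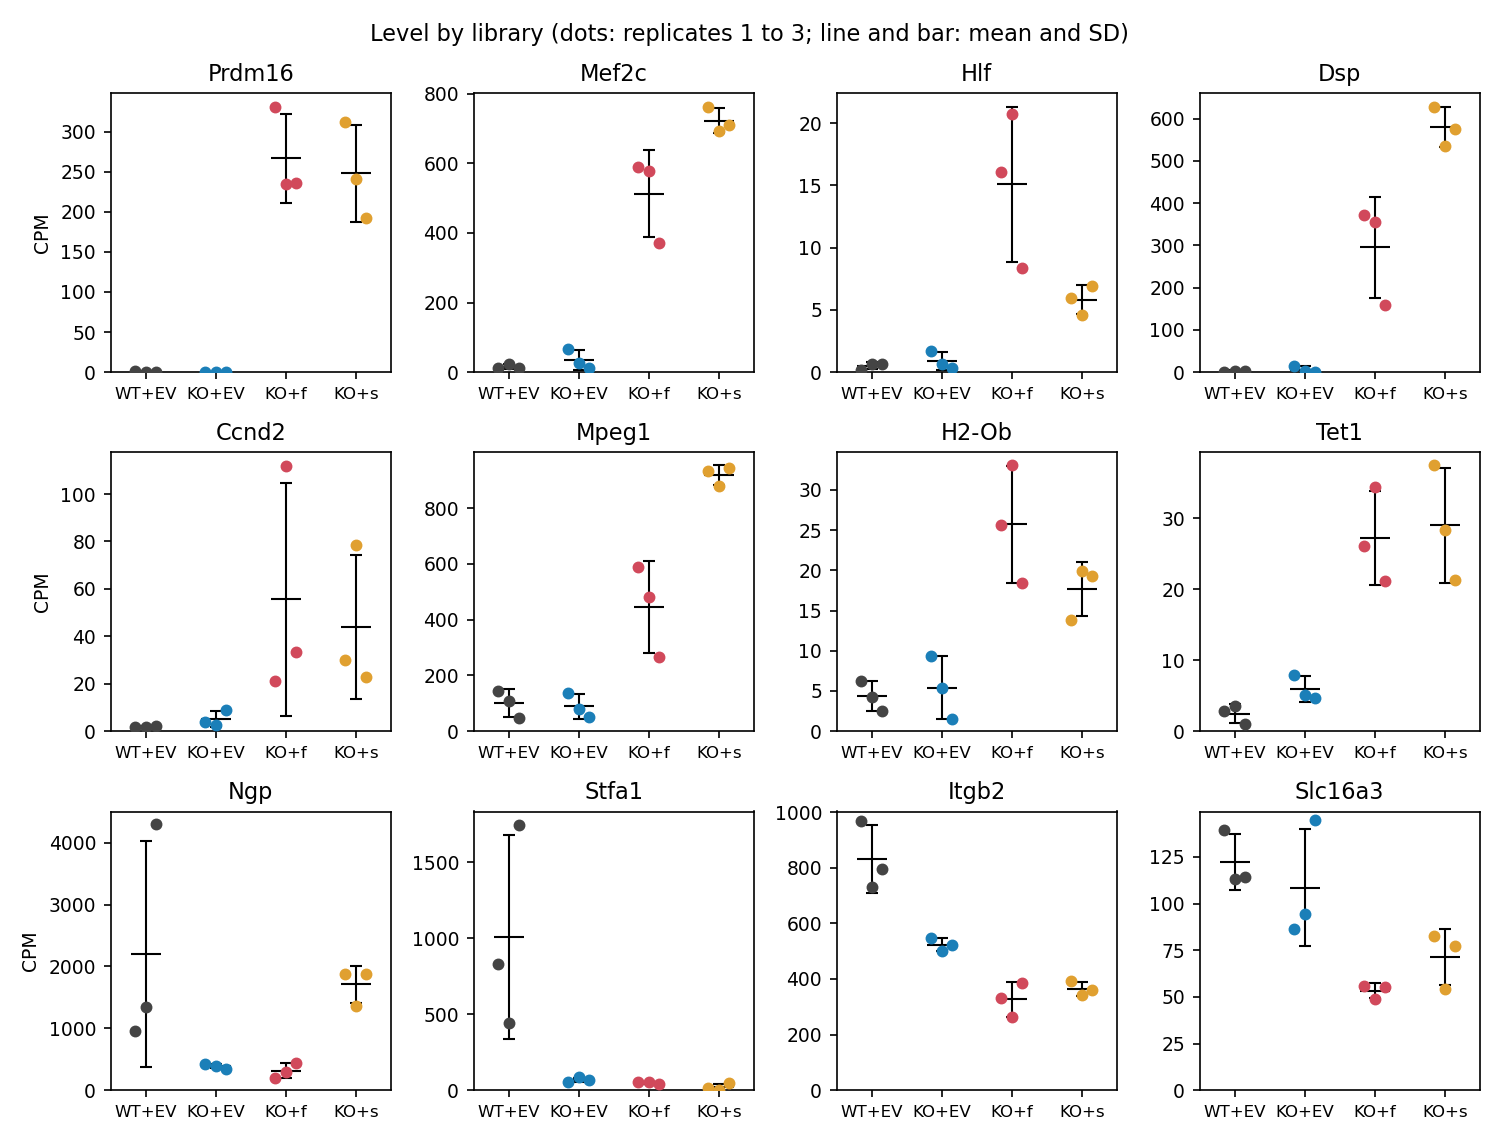
CPM of 12 genes in each library (dots, replicates 1 to 3) of the 4 leukaemia groups, with the group mean and SD (n = 3) as line and bar; every vertical axis starts at 0. Mef2c, Hlf, Dsp, Mpeg1, H2-Ob and Tet1 are high in both add-back groups, while Ngp is low in KO+EV and KO+f and near the wild-type level in KO+s.

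Stem cell regulators were among the genes that rose. Of 19 tested transcription factors of haematopoietic stem cells 5 (26.3%, against 6.11% of all tested genes) were higher in KO+f and 0 lower by edgeR, with a median of 0.46. At an unadjusted p under 0.05, 7 differed, and DESeq2 called 5 higher and 0 lower. Hlf, a leucine-zipper factor that marks stem cells, stood at 16.1, 20.8 and 8.39 CPM in KO+f and 0.175, 0.671 and 0.660 CPM in WT+EV, a log2 difference of 4.87 ± 0.61 (adjusted p = 0.00133). Groups did not overlap, and Hlf stayed called without any one library. It stood at 5.95, 4.63 and 6.92 CPM in KO+s, and the difference between the forms was not called (1.37 ± 0.50, adjusted p = 0.136). Smaller rises were found for Etv6, an ETS repressor that stem cells need (0.98 ± 0.20, adjusted p = 0.0136), the Polycomb gene Bmi1 (0.66 ± 0.14, adjusted p = 0.0168) and Hoxb4 (2.07 ± 0.50, adjusted p = 0.0245). Etv6 lost its call without WT+EV replicate 1 or 3 or KO+f replicate 1 (adjusted p 0.0502 to 0.0537). Bmi1 lost it without KO+f replicate 2 (adjusted p 0.0529). Hoxb4 lost it without WT+EV replicate 1, 2 or 3 or KO+f replicate 1 or 2 (adjusted p 0.0568 to 0.083).

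Among 20 tested surface markers of stem and progenitor cells 5 rose (25%, against 6.11% of all tested genes) and 1 fell (5% against 3.86%), with a median of 0.42. The stem cell marker Procr, the protein C receptor, had 34 counts in KO+f and 1 in WT+EV, a ratio of 30.9 (95% interval 5.17 to 1254; adjusted p = 0.00489), all at levels under 1 CPM. Von Willebrand factor (Vwf) stood at 30.4, 16.4 and 14.1 CPM against 2.21, 1.91 and 1.51 CPM (difference 3.43 ± 0.68, adjusted p = 0.0124). Itga6, an integrin chain of stem cells, stood at 218, 185 and 144 CPM against 38.0, 50.5 and 39.4 CPM (difference 2.10 ± 0.49, adjusted p = 0.0253). In KO+EV, Vwf stood at 6.26, 9.70 and 0.833 CPM and Itga6 at 107, 111 and 18.2 CPM, and in KO+s at 45.6, 21.8 and 33.9 CPM and 177, 189.7 and 174 CPM. The KO+f libraries were above every WT+EV library in all of these, and the groups lacked overlap in 31.9% of all tested genes. Itga2b (CD41) and Eng (endoglin) were the other risers, and Fcgr3, an Fc receptor of maturing myeloid cells, fell by 0.78 ± 0.18 (adjusted p = 0.0215). Calls were lost for Vwf without WT+EV replicate 3 (adjusted p 0.0572) and for Itga6 without WT+EV replicate 1, 2 or 3 or KO+f replicate 1 or 2 (adjusted p 0.0535 to 0.0905). The Itga2b call was lost without WT+EV replicate 1, 2 or 3 or KO+f replicate 1 or 2 (adjusted p 0.0804 to 0.0934), and the Eng call whichever library was left out (adjusted p 0.0708 to 0.138). Fcgr3 was not called without WT+EV replicate 1 or KO+f replicate 1 or 2 (adjusted p 0.0714 to 0.08). Kit was not called (log2 difference 0.62 ± 0.33, adjusted p = 0.249), nor was Flt3, which stood at 348, 342 and 98.3 CPM in KO+f and 43.2, 61.7 and 19.0 CPM in WT+EV (adjusted p = 0.127).

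Of 25 tested genes of the MLL-AF9 programme 3 rose (12%, against 6.11% of all tested genes) and 1 fell (4% against 3.86%), and the median was -0.03. Hoxa9, at 224, 187 and 224 CPM in KO+f and 256, 232 and 214 CPM in WT+EV, and Meis1, at 170.2, 134 and 159 CPM and 143, 173 and 156 CPM, overlapped between the groups. Mef2c, a transcription factor tied to the stem-like state of MLL leukaemias, rose. Its level was 591, 579 and 370.5 CPM in KO+f and 12.9, 24.3 and 10.7 CPM in WT+EV, a log2 difference of 5.01 ± 0.60 (adjusted p = 0.00133). KO+EV held 68.0, 26.6 and 11.4 CPM and KO+s 763, 693 and 711 CPM, so both add-back groups lay above both empty-vector groups. The anti-apoptotic gene Bcl2 rose from 32.1, 27.1 and 11.9 CPM in WT+EV to 81.2, 120.0 and 53.4 CPM in KO+f (1.84 ± 0.49, adjusted p = 0.0391). It was the only one called of 17 tested BCL2 family genes (5.88%, near the 6.11% of all tested genes). Its call was lost without WT+EV replicate 1, 2 or 3 or KO+f replicate 1 or 2 (adjusted p 0.0612 to 0.116).

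Late neutrophil genes were lower in KO+f. Of 23 tested secondary and tertiary granule genes 8 fell and 0 rose, which is 34.8% of them against 3.86% of all tested genes. Their median log2 difference was -1.66. At an unadjusted p under 0.05, 16 of the 23 differed, and DESeq2 called 13 lower and 1 higher. Ngp, a neutrophil granule protein, stood at 204, 295 and 442 CPM in KO+f and at 952, 1344 and 4301 CPM in WT+EV, a difference of -2.81 ± 0.50 (adjusted p = 0.00801). Stfa1, a stefin A protease inhibitor of maturing neutrophils, stood at 55.6, 52.6 and 43.0 CPM against 831, 439 and 1748 CPM, a difference of -4.32 ± 0.76 (adjusted p = 0.00751). Every KO+f library was below every WT+EV library in both genes, and WT+EV replicate 3, the library with the highest neutrophil marker sum, was the highest. Both stayed called without it, Ngp at -1.86 (adjusted p = 0.00997) and Stfa1 at -3.66 (adjusted p = 0.0235).

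The rest of the stefin cluster followed, with BC100530 at -5.25 ± 0.79, Stfa2 at -4.19 ± 0.76 and Stfa3 at -5.90 ± 0.70 (adjusted p from 0.00116 to 0.00836). These genes are near copies of Stfa1, so how reads were split between them is uncertain. Camp, the antimicrobial cathelicidin, stood at 48.2, 66.2 and 253 CPM against 298, 589.5 and 2635 CPM (-3.26 ± 0.84, adjusted p = 0.0356), with KO+f replicate 3 near the lowest WT+EV library. Camp lost its call without WT+EV replicate 3 or KO+f replicate 1 or 2 (adjusted p 0.102 to 0.137), and without WT+EV replicate 3 its difference was -1.84. The integrin chain gene Itgb2l fell by 1.81 ± 0.37 and the metalloprotease gene Mmp25 by 3.20 ± 0.90. The first lost its call without KO+f replicate 1 (adjusted p 0.0563), the second whichever library was left out (adjusted p 0.0681 to 0.125). Lactoferrin (Ltf) stood at 10.51, 16.9 and 19.7 CPM in KO+f and 6.94, 37.8 and 99.2 CPM in WT+EV and was not called. Nor were S100a8 and S100a9 (log2 differences -1.32 ± 0.50 and -1.38 ± 0.43, adjusted p = 0.118 and 0.0642). The 6 summed neutrophil markers are all members of this list, so their lower sum in KO+f is the same measurement and not a separate one.

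The other leukaemia groups split this set. In KO+EV, Ngp stood at 421, 397 and 350.1 CPM and Stfa1 at 56.6, 83.9 and 67.9 CPM, close to the KO+f levels, and KO+f minus KO+EV was not called for either. In KO+s, Ngp stood at 1886, 1362 and 1882 CPM, within the wild-type range (KO+f minus KO+s -2.45 ± 0.50, adjusted p = 0.0274). Stfa1 was low there too, at 16.3, 3.72 and 45.3 CPM (KO+f minus KO+s 1.21 ± 0.68, adjusted p = 0.324). Itgb2l behaved as Ngp did, at 143, 84.9 and 129 CPM in KO+s (KO+f minus KO+s -2.57 ± 0.38, adjusted p = 0.00832).

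The 250 bases before the start sites of Ngp and Stfa1 are shown because C/EBP factors are known to switch on late granule genes and these are the called granule genes whose windows hold a C/EBP motif. They come from RefSeq (build GRCm38.p6), run 5′ to 3′ on the gene's strand, and have matches to the C/EBP half-site pair TTGCNNAA in capitals, on either strand.
Ngp (chr9:110419558-110419807, plus strand): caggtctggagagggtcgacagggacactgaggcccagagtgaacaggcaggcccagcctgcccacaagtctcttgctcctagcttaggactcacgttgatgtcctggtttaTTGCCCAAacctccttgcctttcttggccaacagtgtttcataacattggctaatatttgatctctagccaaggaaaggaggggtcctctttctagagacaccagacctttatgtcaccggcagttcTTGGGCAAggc
Stfa1 (chr16:36276898-36277147, plus strand): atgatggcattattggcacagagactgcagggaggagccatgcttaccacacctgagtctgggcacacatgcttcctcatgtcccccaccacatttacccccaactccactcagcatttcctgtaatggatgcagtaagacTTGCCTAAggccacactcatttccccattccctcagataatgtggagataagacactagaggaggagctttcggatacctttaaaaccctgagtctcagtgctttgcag
The pair occurs in 9.56% of 32851 promoter windows of that length and in 6 of the 19 granule genes with an entry (31.6%). Of the 7 called granule genes with an entry only these 2 hold it, while 4 that were not called, Lcn2, Ltf, Mmp8 and S100a9, also do. Of the C/EBP genes, Cebpb (log2 difference -0.62 ± 0.17, adjusted p = 0.0392) and Cebpd (-0.78 ± 0.22, adjusted p = 0.0418) fell. Cebpe, at -0.89 ± 0.34 (adjusted p = 0.12), and Cebpa, at -0.20 ± 0.20 (adjusted p = 0.551), were not called. The Cebpb call was lost without WT+EV replicate 1, 2 or 3 or KO+f replicate 2 or 3 (adjusted p 0.054 to 0.137), and that of Cebpd whichever library was left out (adjusted p 0.0518 to 0.125). A match is a description of letters, not a shown binding site.

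Of 13 tested primary granule genes, which are switched on earlier, edgeR called 1 (7.69% higher, near the 6.11% of all tested genes). This was a rise in the protease-activating cathepsin gene Ctsc, from 16.2, 20.3 and 20.2 CPM in WT+EV to 66.1, 58.9 and 40.2 CPM in KO+f (1.54 ± 0.35, adjusted p = 0.0206). This call was lost without WT+EV replicate 1, 2 or 3 or KO+f replicate 1 or 2 (adjusted p 0.0506 to 0.0751). Myeloperoxidase (Mpo) stood at 3691, 7131 and 3773 CPM in KO+f and at 1039, 1649 and 993 CPM in WT+EV without overlap, yet was not called (1.99 ± 0.83, adjusted p = 0.149). KO+EV ranged from 3270.0 to 33200.0 CPM. The median of the list was 0.50, and DESeq2 called 2 higher and 1 lower. Outside the granule lists, the 12 largest falls among called genes with a mean log2 CPM of at least 3 and no overlap between the groups included enzymes and receptors of mature myeloid cells. Alox5, the 5-lipoxygenase of leukotriene synthesis, stood at 7.83, 5.13 and 14.3 CPM against 118, 61.0 and 89.8 CPM in WT+EV (-3.30 ± 0.54, adjusted p = 0.00501). C5ar1, the receptor for complement C5a, stood at 3.31, 1.63 and 2.80 CPM against 17.6, 17.0 and 20.9 CPM (-2.84 ± 0.52, adjusted p = 0.00793). KO+EV, at 3.00, 6.04 and 8.44 CPM, was also below every WT+EV library and overlapped KO+f. KO+f minus KO+EV was not called for C5ar1 (-1.17 ± 0.50, adjusted p = 0.149). Siglece, an inhibitory sialic acid receptor, fell by 3.51 ± 0.63 (adjusted p = 0.00811), and KO+EV, at 15.9, 14.1 and 18.9 CPM, lay between the groups. The galactosyltransferase gene B3galt5 was very even, at 2.48, 2.83 and 3.06 CPM in KO+f and 24.9, 26.5 and 22.1 CPM in WT+EV (-3.13 ± 0.37, adjusted p = 0.00116). Lpcat2, an enzyme of platelet-activating factor synthesis, fell by 2.81 ± 0.64 and the receptor gene Gpr141 by 2.98 ± 0.68. Lpcat2 lost its call without WT+EV replicate 1 or KO+f replicate 1 (adjusted p 0.0586 to 0.0703), and Gpr141 without WT+EV replicate 1 or KO+f replicate 1, 2 or 3 (adjusted p 0.062 to 0.0668).

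Several antigen presentation genes rose. Of 17 tested MHC class II and antigen presentation genes 5 were higher in KO+f and 0 lower, 29.4% against 6.11% of all tested genes, with a median of 0.72. At an unadjusted p under 0.05, 9 differed, and DESeq2 called 7 higher and 1 lower. H2-Ob, a chain of the peptide-loading regulator H2-O, stood at 25.6, 33.1 and 18.5 CPM in KO+f and 6.24, 4.28 and 2.54 CPM in WT+EV (2.57 ± 0.53, adjusted p = 0.0136). H2-Aa, a chain of the class II molecules themselves, stood at 58.4, 40.03 and 23.4 CPM against 12.7, 13.99 and 5.80 CPM (1.91 ± 0.49, adjusted p = 0.0346). H2-Eb1, another chain, stood at 39.3, 24.1 and 17.3 CPM against 8.39, 8.21 and 3.44 CPM (2.01 ± 0.51, adjusted p = 0.0329). The class II transactivator Ciita rose by 2.75 ± 0.71 (adjusted p = 0.0336), and the co-stimulatory receptor Cd40, at low levels of 0.973, 1.53 and 0.400 CPM against 0.117, 0.103 and 0.0942 CPM, by 3.14 ± 0.59 (adjusted p = 0.00873). The KO+f libraries were above every WT+EV library in all 5 genes, and the groups lacked overlap in 31.9% of all tested genes. Cd74, the class II chaperone, had the same direction without a call (1.71 ± 0.56, adjusted p = 0.078).

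Only Cd40 among the 5 stayed called without any one library. It was also above every WT+EV library in KO+EV, without an added form, at 0.560, 0.458 and 0.573 CPM. KO+f minus KO+EV was not called for Cd40 (0.86 ± 0.48, adjusted p = 0.26). H2-Ob lost its call without WT+EV replicate 3 (adjusted p 0.0568), and H2-Aa without WT+EV replicate 1, 2 or 3 or KO+f replicate 1 or 2 (adjusted p 0.0578 to 0.107). H2-Eb1 lost its call without WT+EV replicate 1, 2 or 3 or KO+f replicate 1 or 2 (adjusted p 0.0633 to 0.105), and Ciita without WT+EV replicate 1 or 3 or KO+f replicate 1 or 2 (adjusted p 0.0724 to 0.104). Dendritic cell markers summed to 0.666 to 1.85 CPM in KO+f and 1.08 to 1.17 CPM in WT+EV, and B-cell markers to 11.2 to 36.8 CPM against 15.4 to 19.8 CPM, so both overlapped between the groups. KO+s stood at 43.7, 96.6 and 46.4 CPM of H2-Aa and KO+EV at 4.07, 11.3 and 6.46 CPM. Class II promoters share an X box, bound by RFX proteins, and a Y box, bound by NF-Y, through which CIITA acts. The 250 bases before the start sites of the 3 called class II genes with a RefSeq entry (GRCm38.p6) are printed for this reason. Exact matches to the Y box core GATTGG and the X box core CTAGCAAC are in capitals, on either strand.
H2-Aa (chr17:34287824-34288073, minus strand): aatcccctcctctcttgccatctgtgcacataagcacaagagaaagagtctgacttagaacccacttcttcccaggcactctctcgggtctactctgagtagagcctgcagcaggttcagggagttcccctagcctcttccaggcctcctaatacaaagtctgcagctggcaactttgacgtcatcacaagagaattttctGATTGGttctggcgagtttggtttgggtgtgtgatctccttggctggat
H2-Eb1 (chr17:34305617-34305866, plus strand): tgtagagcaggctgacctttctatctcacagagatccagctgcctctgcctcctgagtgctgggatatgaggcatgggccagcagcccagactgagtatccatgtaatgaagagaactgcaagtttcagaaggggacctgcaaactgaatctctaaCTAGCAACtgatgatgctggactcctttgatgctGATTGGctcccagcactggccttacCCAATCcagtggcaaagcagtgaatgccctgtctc
H2-Ob (chr17:34238655-34238904, plus strand): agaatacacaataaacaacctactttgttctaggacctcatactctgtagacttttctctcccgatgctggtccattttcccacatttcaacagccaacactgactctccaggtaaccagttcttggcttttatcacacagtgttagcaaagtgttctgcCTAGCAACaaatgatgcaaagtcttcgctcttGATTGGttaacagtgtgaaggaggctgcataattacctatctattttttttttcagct
The windows of H2-Eb1 and H2-Ob hold exact matches to both cores and that of H2-Aa to the Y box core alone. Near matches were not sought, and the H2-Aa window holds one to the X box core, ctggcaac, so an X box there is not excluded. The Y box core occurs in 14.6% of all 32851 promoter windows and in 8 of 11 genes of the list with an entry (72.7%), and the X box core in 1.13% and in 3 of 11 (27.3%). The genes with the motifs did not all rise: H2-DMa, H2-DMb1 and H2-DMb2 hold the Y box core, and their log2 differences were -0.17 ± 0.20, 0.01 ± 0.15 and -0.19 ± 0.26.

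**Figure D3:**
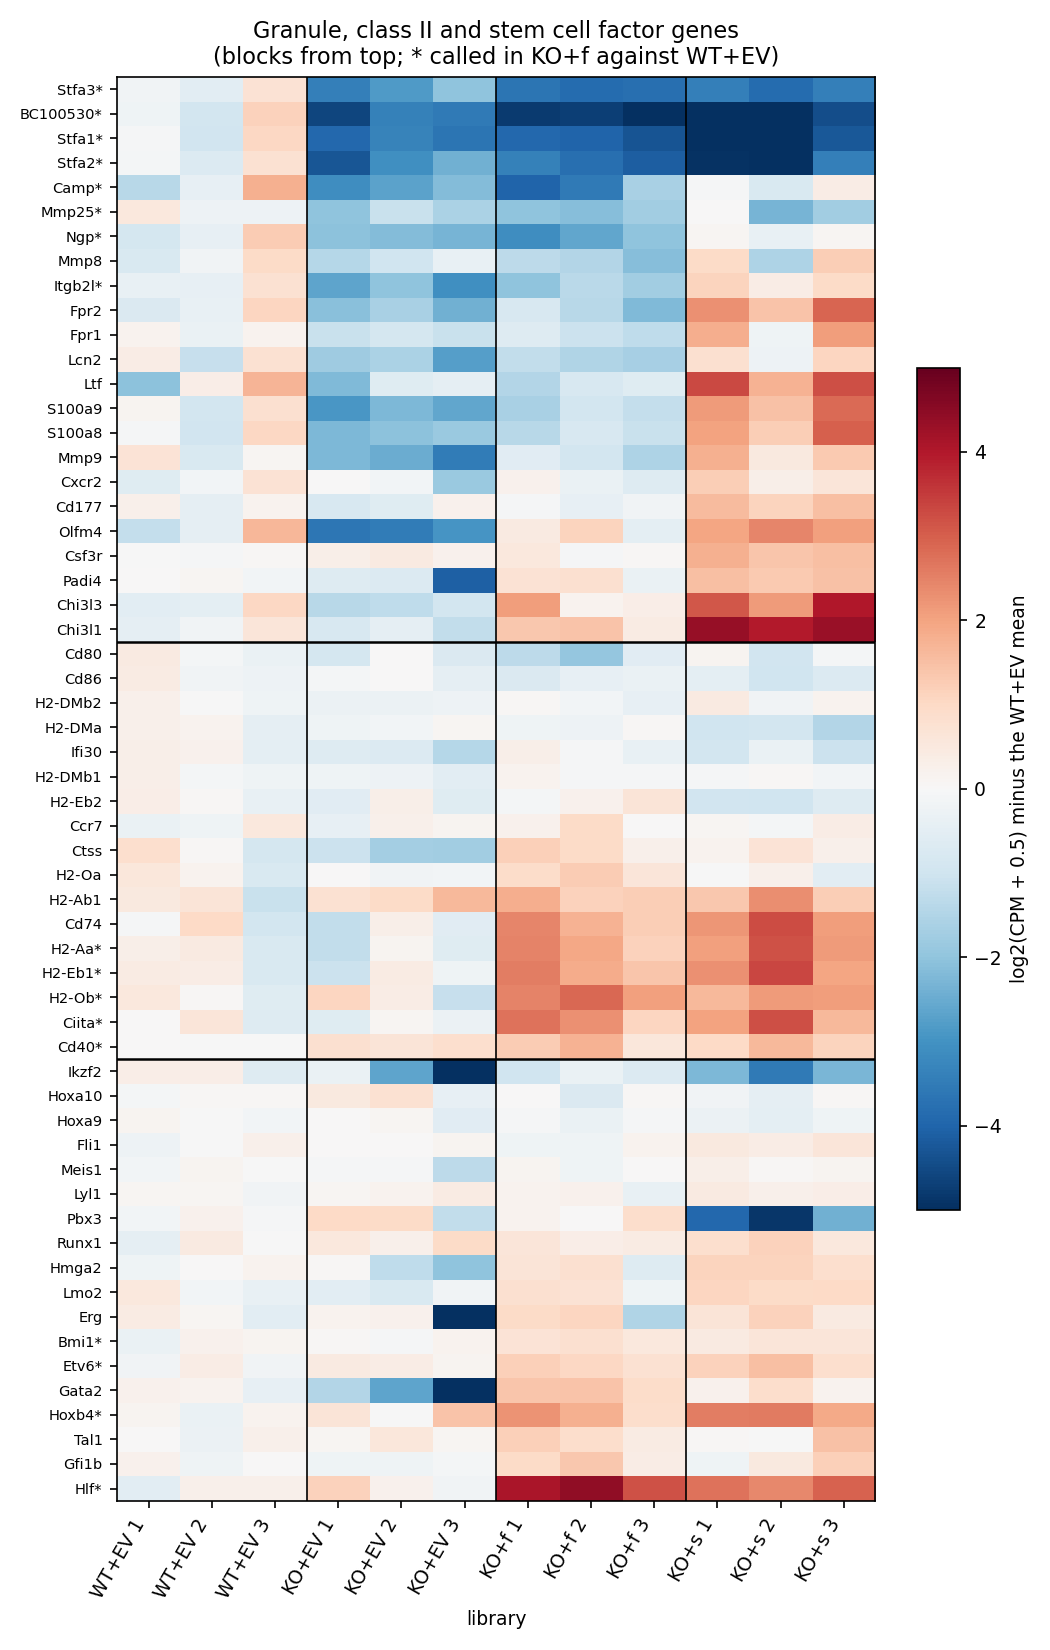
Each row is a tested gene of 3 lists (granule, class II and stem cell factor genes, the last without 1 gene that is not shown, from the top, split by black lines), each column a leukaemia library, and colour gives log2(CPM + 0.5) minus the WT+EV mean. Asterisks mark the 8, 5 and 4 called genes shown. Most granule rows are blue in KO+f and KO+EV. In KO+s the rows of Ltf, S100a8 and S100a9 are red, those of Ngp and Camp are near the WT+EV level and those of the called stefin genes are blue. Hlf and the called class II rows are red in both add-back groups.

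Of 32 tested monocyte and macrophage genes 2 were higher (6.25%, near the 6.11% of all tested genes) and 3 lower (9.38% against 3.86%). The chemokine receptor Cx3cr1 rose from 2.97, 1.75 and 1.41 CPM in WT+EV to 31.3, 21.7 and 6.39 CPM in KO+f (3.28 ± 0.50, adjusted p = 0.00374). The pore-forming perforin gene Mpeg1 rose from 146, 108 and 46.1 CPM to 589, 482 and 265 CPM (2.16 ± 0.45, adjusted p = 0.0153). In both genes KO+f replicate 3 was the lowest of its group and still above every WT+EV library. The iron exporter Slc40a1 (-1.69 ± 0.28, adjusted p = 0.00472) and the integrin chains Itgax (-2.26 ± 0.43, adjusted p = 0.00873) and Itgam (-0.59 ± 0.15, adjusted p = 0.0298) fell. Itgax in KO+EV, at 6.05, 5.08 and 5.99 CPM, lay between the groups, and KO+f minus KO+EV was not called (-0.94 ± 0.42, adjusted p = 0.158). Mpeg1 lost its call without KO+f replicate 1 (adjusted p 0.0505) and Itgam without WT+EV replicate 1 or 3 or KO+f replicate 2 or 3 (adjusted p 0.0774 to 0.109). Of 19 tested myeloid transcription factors 2 were higher and 2 lower. Their median log2 difference was -0.20, and 11 of the 19 estimates were below 0. The lower ones, Cebpb and Cebpd, are described above with the granule genes. Batf2, an interferon-inducible factor, rose by 3.95 ± 0.75 (adjusted p = 0.00873) and the repressor Bcl6 by 1.44 ± 0.35 (adjusted p = 0.0264). The Bcl6 call was lost without WT+EV replicate 1 or 2 or KO+f replicate 1 or 2 (adjusted p 0.0568 to 0.0889). Spi1, listed under its older symbol Sfpi1, was not called (0.06 ± 0.12, adjusted p = 0.793).

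Some genes of other blood lineages rose. Of 16 tested megakaryocyte and platelet genes 4 were higher (25%, against 6.11% of all tested genes): Mef2c, described above, Vwf, Itga2b and Zfpm1 (FOG-1, the GATA1 cofactor). Mef2c, Vwf and Itga2b are also members of lists given above. The median of the list was 0.35, with 9 estimates above 0 and 7 below, the lowest at -2.73. Zfpm1 stood at 7.15, 10.3 and 8.79 CPM in KO+f, 1.92, 2.168 and 1.37 CPM in WT+EV and 2.80, 3.83 and 2.97 CPM in KO+s (2.26 ± 0.53, adjusted p = 0.0225). It lost its call without WT+EV replicate 1, 2 or 3 or KO+f replicate 2 (adjusted p 0.0512 to 0.0882). Of 15 erythroid genes 3 rose (20%), all at low levels. There were 114 counts of the carbonic anhydrase gene Car1 in KO+f and 1 in WT+EV (ratio 103, 95% interval 18.2 to 4120.0; adjusted p = 0.0114). There were 55 counts of the water channel gene Aqp1 against 2 (ratio 24.9, 95% interval 6.59 to 211; adjusted p = 0.0217). Ank1, which encodes the membrane skeleton protein ankyrin, was the other (adjusted p = 0.0495). The 4 globin markers were listed at 0 in all 12 libraries and so add nothing here. The erythroid marker Slc4a1 stood at 3.45, 1.92 and 1.47 CPM in KO+f and 0.117, 0 and 0.424 CPM in WT+EV without a call, while Alas2 overlapped. The summed megakaryocyte markers were 12.4 to 16.7 CPM in KO+f against 4.49 to 7.11 CPM in WT+EV. Itga2b is 1 of these markers, at 7.30, 9.25 and 3.37 CPM in KO+f, so the sum is not a separate measurement. Aqp1 lost its call without WT+EV replicate 1 or 3 or KO+f replicate 1 (adjusted p 0.0683 to 0.0828), and Ank1 without WT+EV replicate 1, 2 or 3 or KO+f replicate 1 or 2 (adjusted p 0.0664 to 0.18).

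Of 10 B-cell genes 2 rose (20%, against 6.11% of all tested genes), the inhibitory receptor Cd22 (6.18, 5.37 and 2.44 CPM against 0.350, 0.723 and 0.518 CPM, log2 difference 3.11 ± 0.52, adjusted p = 0.00466) and the IgE receptor Fcer2a (3.32 ± 0.75, adjusted p = 0.0189). Fcer2a lost its call without WT+EV replicate 1 or 2 or KO+f replicate 1 (adjusted p 0.0603 to 0.0713). Among 10 T- and NK-cell genes 1 rose (10%, against 6.11% of all tested genes) and 1 fell (10% against 3.86%). Cd28 rose and Bcl11b, a T-lineage transcription factor, fell from 3.44, 12.7 and 18.2 CPM in WT+EV to 0.876, 0.911 and 0.488 CPM (-3.91 ± 0.67, adjusted p = 0.00539). KO+EV held 0.916, 4.21 and 1.875 CPM of Bcl11b, and KO+f minus KO+EV was not called (-1.62 ± 0.64, adjusted p = 0.12). Btla, an inhibitory lymphocyte receptor on the dendritic cell list, was the 1 of its 7 tested genes that fell (14.3%, against 3.86% of all tested genes). Its log2 difference was -1.70 ± 0.29 (adjusted p = 0.00509). Here KO+EV, at 18.3, 25.4 and 13.8 CPM, was at the KO+f level of 19.0, 16.2 and 16.6 CPM. Alox15 was the 1 of 9 mast cell, basophil and eosinophil genes that fell (11.1% against 3.86%), with a log2 difference of -3.24 ± 0.56 (adjusted p = 0.00548). No stromal, endothelial or fat cell gene of 10 was called by edgeR, with 1 at an unadjusted p under 0.05 and 1 called by DESeq2. This was Pdgfrb, which stood at 4.43, 11.7 and 7.86 CPM in KO+f and 62.0, 41.8 and 14.4 CPM in WT+EV (edgeR adjusted p = 0.0651). Pdgfrb was called in a fit of these 6 libraries alone (adjusted p = 0.0457).

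**Figure D4:**
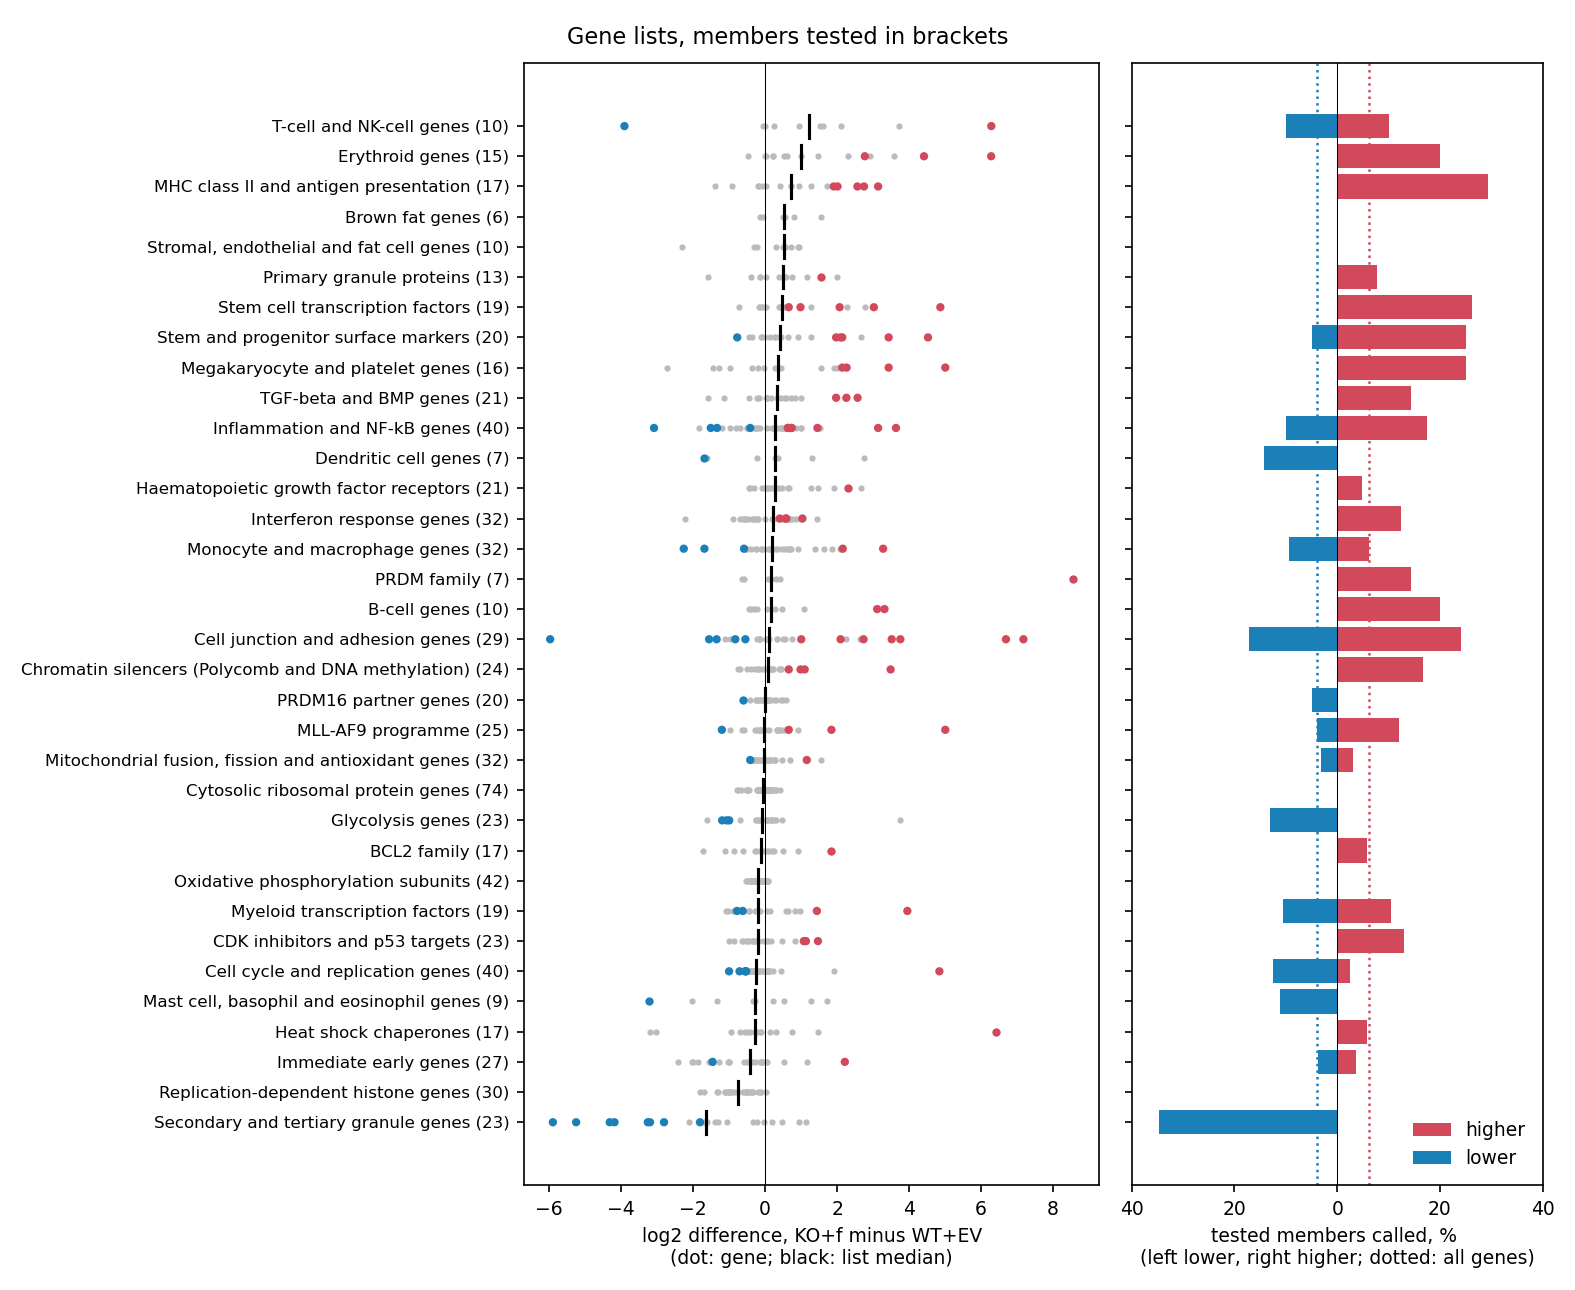
Left, the log2 difference between KO+f and WT+EV for each tested gene of the gene lists (dot; red called higher, blue called lower, grey not called) with the list median as a black bar; right, the percentage of tested members called lower (left of 0) and higher (right), with dotted lines at 3.86% and 6.11%, the shares over all tested genes. The secondary and tertiary granule list has the lowest median (-1.66) and 8 blue dots; the class II list has 5 red ones.

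Of 40 inflammatory genes 7 were higher (17.5%, against 6.11% of all tested genes) and 4 lower (10% against 3.86%). Nfkb1, the p105 and p50 subunit gene of NF-kB, rose evenly from 165, 196 and 169 CPM in WT+EV to 321, 309 and 249 CPM in KO+f (0.73 ± 0.12, adjusted p = 0.00475). The interleukin-1 receptor gene Il1r1 rose from 1.92, 0.774 and 0.424 CPM to 16.9, 14.5 and 7.10 CPM (3.64 ± 0.63, adjusted p = 0.00597). Its natural antagonist moved the other way: Il1rn fell from 32.6, 18.2 and 21.3 CPM to 3.06, 2.01 and 3.37 CPM (-3.09 ± 0.52, adjusted p = 0.0053). KO+EV held 8.24, 8.10 and 23.4 CPM of Il1rn and KO+s 14.2, 5.74 and 17.8 CPM. The toll-like receptor gene Tlr1 (-1.34 ± 0.22, adjusted p = 0.00464) and the cytokine gene Tnf (5.16, 6.71 and 3.68 CPM against 13.9, 14.6 and 15.8 CPM, -1.51 ± 0.31, adjusted p = 0.0122) also fell. Tnf stood at 5.29, 3.02 and 5.94 CPM in KO+EV and 13.8, 12.1 and 20.3 CPM in KO+s. Tnf differed between the add-back forms (KO+f minus KO+s -1.57 ± 0.31, adjusted p = 0.0208). The smaller rises of Nfkbie, Bcl3, Tnfaip2 and Casp1 lay between 0.63 and 1.45, and that of Cd40 is given above. Nfkbie lost its call without WT+EV replicate 1, 2 or 3 or KO+f replicate 1 or 2 (adjusted p 0.063 to 0.104), and Bcl3 without WT+EV replicate 1, 2 or 3 or KO+f replicate 1 or 3 (adjusted p 0.0507 to 0.127). Tnfaip2 lost its call without WT+EV replicate 1, 2 or 3 or KO+f replicate 1 or 2 (adjusted p 0.0737 to 0.125), and Casp1 whichever library was left out (adjusted p 0.0588 to 0.135). The antioxidant gene Sod2 fell by 0.41 ± 0.11, a call lost without WT+EV replicate 1 or 3 or KO+f replicate 1, 2 or 3 (adjusted p 0.069 to 0.137).

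Interferon response genes showed 4 small rises of 32 (12.5%, against 6.11% of all tested genes): Trim30a (1.04 ± 0.22), Irgm1 (0.59 ± 0.13), Irf9 (0.57 ± 0.14) and Stat2 (0.41 ± 0.12), with adjusted p from 0.0148 to 0.0489. Trim30a has close copies, so its reads are uncertain. Irgm1 was as high without any added form, at 33.0, 39.0 and 33.2 CPM in KO+EV, 34.3, 32.9 and 28.6 CPM in KO+f and 21.98, 22.9 and 18.8 CPM in WT+EV, and was called in KO+EV against WT+EV too (0.73 ± 0.13, adjusted p = 0.0244). Trim30a stood at 84.1, 102 and 48.8 CPM in KO+EV, overlapping 95.6, 81.1 and 77.2 CPM in KO+f. Calls were lost for Trim30a without WT+EV replicate 1 or 3 or KO+f replicate 1 (adjusted p 0.0545 to 0.0599) and for Irgm1 without WT+EV replicate 3 or KO+f replicate 1 or 2 (adjusted p 0.0532 to 0.0652). The Irf9 call was lost without WT+EV replicate 1 or 3 or KO+f replicate 1 or 2 (adjusted p 0.0781 to 0.108), and the Stat2 call whichever library was left out (adjusted p 0.0783 to 0.142). Immediate early genes respond within minutes to growth signals or handling. Of 27 tested, 1 rose (3.7%, below the 6.11% of all tested genes) and 1 fell (3.7%, near the 3.86% of all). The phosphatase gene Dusp5 rose (2.22 ± 0.54, adjusted p = 0.0289) and Egr2 fell (-1.46 ± 0.40, adjusted p = 0.0412). Egr2 stood at 1.22, 0.915 and 2.45 CPM in KO+EV, in the range of KO+f (2.04, 1.44 and 1.33 CPM) and below WT+EV (3.38, 5.21 and 4.67 CPM). In all, 22 of 27 estimates were below 0. Egr2 lost its call whichever library was left out (adjusted p 0.0584 to 0.106), and Dusp5 without WT+EV replicate 1 or 3 or KO+f replicate 1 or 2 (adjusted p 0.0674 to 0.094). Jun was the widest of the list, at 364, 119 and 88.7 CPM in KO+f and 392, 1430.0 and 1235 CPM in WT+EV, and was not called. Of 17 heat shock genes 1 rose (5.88%, near the 6.11% of all tested genes). This was the small chaperone gene Cryab, from 0, 0.258 and 0.0471 CPM to 12.1, 11.9 and 4.17 CPM (6.42 ± 0.69, adjusted p = 0.000777). It stood at 15.1, 13.1 and 14.3 CPM in KO+s.

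A pair of D-type cyclins, the partners of CDK4 and CDK6 that admit cells to division, moved in opposite directions. Ccnd2 stood at 21.3, 112 and 33.5 CPM in KO+f and 1.81, 1.75 and 2.21 CPM in WT+EV (4.84 ± 0.78, adjusted p = 0.00473), with KO+f replicate 2 well above the other KO+f libraries and no overlap between groups. Ccnd3 stood at 200.4, 136 and 166 CPM against 345, 274 and 387 CPM (-1.002 ± 0.18, adjusted p = 0.00765). KO+EV, at 186, 192 and 174 CPM, was as low, while KO+s, at 344, 239 and 338 CPM, was not (KO+f minus KO+s -0.87 ± 0.18, adjusted p = 0.0279). Of 40 cell cycle and replication genes, 1 rose (2.5%, against 6.11% of all tested genes) and 5 fell (12.5% against 3.86%), with 27 of 40 estimates below 0. Besides Ccnd3 the falls were in DNA synthesis genes: the thymidylate synthase gene Tyms (-0.71 ± 0.19), the origin-licensing gene Cdc6 (-0.56 ± 0.15) and the helicase subunits Mcm2 (-0.53 ± 0.15) and Mcm5 (-0.53 ± 0.15), with adjusted p from 0.0396 to 0.0484. Both cyclin calls held without any one library. Tyms lost its call without WT+EV replicate 1 or 3 or KO+f replicate 1 or 2 (adjusted p 0.101 to 0.144), and Cdc6 without WT+EV replicate 1, 2 or 3 or KO+f replicate 1 or 2 (adjusted p 0.0962 to 0.118). Mcm2 lost its call whichever library was left out (adjusted p 0.0579 to 0.139), and Mcm5 whichever library was left out (adjusted p 0.0566 to 0.15).

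Of 23 CDK inhibitor and p53 target genes 3 rose (13%, against 6.11% of all tested genes). The stress gene Trp53inp1 stood at 80.5, 55.9 and 145 CPM in KO+f and 29.0, 33.5 and 39.2 CPM in WT+EV (1.47 ± 0.28, adjusted p = 0.00972). KO+EV, at 50.6, 59.5 and 48.5 CPM, was above every WT+EV library too. KO+f minus KO+EV was not called for Trp53inp1 (0.83 ± 0.28, adjusted p = 0.0759). The sestrin gene Sesn1 stood at 58.5, 69.9 and 45.0 CPM in KO+f against 24.8, 28.6 and 25.6 CPM in WT+EV (1.13 ± 0.23, adjusted p = 0.0134). Cdkn1c (p57), a CDK inhibitor of quiescent stem cells, stood at 47.2, 46.9 and 36.5 CPM against 25.0, 13.99 and 23.0 CPM (1.08 ± 0.27, adjusted p = 0.0297). It was higher again in KO+s, at 121, 101 and 149.6 CPM (KO+f minus KO+s -1.51 ± 0.27, adjusted p = 0.0158). Its call against wild type was lost without WT+EV replicate 2 or 3 or KO+f replicate 1 or 2 (adjusted p 0.0678 to 0.0827). Of 30 replication-dependent histone genes 29 had estimates below 0 (median -0.77). EdgeR called 0, with 6 at an unadjusted p under 0.05 and 2 called lower by DESeq2, Hist1h1c (-1.69 ± 0.59) and Hist1h4i (-1.04 ± 0.31). Both were also called in a fit of these 6 libraries alone (adjusted p = 0.023 and 0.0449). The libraries were made from poly-A RNA, in which these transcripts, which lack a poly-A tail, are read in part only.

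Of 23 glycolysis genes 3 fell (13%, against 3.86% of all tested genes): the lactate exporter Slc16a3, from 139, 113 and 114 CPM in WT+EV to 56.0, 48.8 and 55.3 CPM in KO+f (-1.19 ± 0.21, adjusted p = 0.0056), the hexokinase gene Hk2 and the regulatory enzyme gene Pfkfb4. Hk2 fell from 113, 137 and 122 CPM to 68.9, 70.3 and 46.8 CPM (-0.998 ± 0.19, adjusted p = 0.00859). Pfkfb4 fell by 1.07 ± 0.23 (adjusted p = 0.0141), a call lost without WT+EV replicate 3 or KO+f replicate 2 (adjusted p 0.0545 to 0.0553). The other genes of the list were not called by edgeR, and the list's median was -0.10. DESeq2 called 2 higher and 3 lower. The highest estimate was that of the lactate dehydrogenase gene Ldhb, at 4.38, 2.54 and 11.2 CPM in KO+f and 0.758, 0.413 and 0.189 CPM in WT+EV (3.75 ± 1.14, adjusted p = 0.0616). KO+EV held 86.5, 94.4 and 144 CPM of Slc16a3. Of 42 oxidative phosphorylation genes edgeR called 0, with 4 at an unadjusted p under 0.05 and 0 by DESeq2. The estimates lay between -0.53 and 0.08 with a median of -0.20. Among 32 genes of mitochondrial fusion, fission and redox control, 1 rose (3.12%, below the 6.11% of all tested genes) and 1 fell (3.12% against 3.86%). Sod2 fell and the growth factor gene Hgf rose (1.16 ± 0.31, adjusted p = 0.0391). The Hgf call was lost without WT+EV replicate 1, 2 or 3 or KO+f replicate 1 or 2 (adjusted p 0.0921 to 0.114). Cytosolic ribosomal protein genes gave 0 calls of 74 by edgeR, 1 at an unadjusted p under 0.05 and 1 lower by DESeq2, and a median of -0.07. Rpl18 was called lower only without KO+f replicate 2 (log2 difference -1.27, adjusted p = 0.0152).

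Of 29 tested cell junction and adhesion genes 7 rose and 5 fell, 41.4% against 9.97% of all tested genes. Besides Dsp and Pcdh11x the risers were the junctional molecule F11r, from 0.700, 0.619 and 0.990 CPM in WT+EV to 11.04, 10.7 and 4.97 CPM in KO+f (3.52 ± 0.44, adjusted p = 0.00133), E-cadherin (Cdh1) and integrin chains. Cdh1 rose from 0.117, 0.361 and 0.0942 CPM to 2.87, 3.69 and 1.42 CPM (3.76 ± 0.60, adjusted p = 0.00393). The integrin chains that rose were Itga4 (1.00 ± 0.21), Itga6 and Itgb7 (2.74 ± 0.67). The falls were in other integrin chains and in claudins. Itgb2, the chain shared by the leukocyte integrins, stood at 330.2, 262 and 387 CPM against 967, 732 and 794 CPM (-1.35 ± 0.15, adjusted p = 0.00106), with KO+EV between, at 549, 501 and 521 CPM. Its partner Itgal fell by 0.83 ± 0.23, the hyaluronan receptor Cd44 by 0.55 ± 0.14, Cldn15 by 1.56 ± 0.29 and Cldn1, at 0, 0.192 and 0.178 CPM against 1.86, 5.21 and 17.5 CPM, by 5.97 ± 1.11 (adjusted p = 0.00873). Itga4 lost its call without WT+EV replicate 1 or 3 (adjusted p 0.0529 to 0.0534), and Itgb7 without WT+EV replicate 2 or 3 or KO+f replicate 1 or 2 (adjusted p 0.0753 to 0.0934). Itgal lost its call without WT+EV replicate 1, 2 or 3 or KO+f replicate 1 or 2 (adjusted p 0.0856 to 0.139), and Cd44 without WT+EV replicate 2 or 3 or KO+f replicate 1, 2 or 3 (adjusted p 0.0644 to 0.104).

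Among regulators of signalling and chromatin, the DNA demethylase gene Tet1 rose from 2.80, 3.56 and 0.942 CPM in WT+EV to 26.1, 34.4 and 21.2 CPM in KO+f (3.49 ± 0.43, adjusted p = 0.00133). The Polycomb repressive complex genes that rose were Cbx7 (33.2, 32.6 and 32.0 CPM against 13.99, 13.99 and 17.7 CPM, 1.10 ± 0.17, adjusted p = 0.00363), Bmi1 and Cbx2 (0.98 ± 0.27, adjusted p = 0.0391), so that 4 of the 24 listed chromatin genes rose (16.7%, against 6.11% of all tested genes). The Cbx2 call was lost without WT+EV replicate 1, 2 or 3 or KO+f replicate 1 or 2 (adjusted p 0.0758 to 0.125). Of 21 TGF-beta and BMP genes 3 rose (14.3%). The repressor Tgif1 rose from 2.97, 8.46 and 6.08 CPM to 38.0, 39.4 and 26.9 CPM (2.57 ± 0.60, adjusted p = 0.0235), Smad1 by 2.26 ± 0.62 (adjusted p = 0.0418) and the co-receptor Eng by 1.97 ± 0.55 (adjusted p = 0.0438). Tgif1 stood at 28.8, 23.4 and 5.83 CPM in KO+EV and 21.1, 26.2 and 8.20 CPM in KO+s. Tgif1 lost its call without WT+EV replicate 1 or 3 or KO+f replicate 1 or 2 (adjusted p 0.0605 to 0.0808). Smad1 lost its call without WT+EV replicate 1, 2 or 3 or KO+f replicate 1 or 2 (adjusted p 0.0719 to 0.126), and Eng whichever library was left out (adjusted p 0.0708 to 0.138). Smad1 was also higher in KO+EV than in WT+EV (2.88 ± 0.62, adjusted p = 0.0421).

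Of 21 cytokine receptor genes 1 rose (4.76%, below the 6.11% of all tested genes). This was Il6st, the shared gp130 chain (2.30 ± 0.64, adjusted p = 0.0469), a call lost whichever library was left out (adjusted p 0.0824 to 0.137). It stood at 41.5, 44.4 and 60.6 CPM in KO+f, 7.11, 10.99 and 11.6 CPM in WT+EV and 48.6, 49.9 and 7.19 CPM in KO+EV, where 2 libraries were at the KO+f level and 1 at the WT+EV level. Of 20 genes for known PRDM16 partner proteins Cebpb was the 1 called (5% lower, near the 3.86% of all tested genes), and the median was 0.01. None of 6 tested brown fat genes was called by edgeR or DESeq2, and 0 reached an unadjusted p under 0.05. The nearest, Zfp516, stood at 109.6, 99.7 and 119 CPM in KO+f and 50.4, 94.8 and 87.6 CPM in WT+EV (0.49 ± 0.26, adjusted p = 0.24), and Ppargc1a, the coactivator of mitochondrial biogenesis, at 3.94, 0.671 and 3.86 CPM against 0.874, 0.361 and 1.65 CPM.

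Counted the same way, 272 genes were called between KO+EV and WT+EV (117 higher, 155 lower), 1461 between KO+f and KO+EV (892 higher, 569 lower) and 494 between KO+f and KO+s (228 higher, 266 lower). Between KO+s and WT+EV 3072 were called, 1533 higher and 1539 lower. These comparisons share libraries with the main one, so their counts are set side by side only.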

How the data were processed

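The leukaemia table holds whole-number read counts per gene as deposited by the authors, with no normalization. Per the submitters' processing notes, bcl2fastq 2.17, TopHat, DESeq and the mm9 build were used; the counting tool and its strand setting are not given in the sources used here. Per the labels' protocols, RNA was extracted with Trizol and poly-A libraries were made with a TruSeq kit. All 12 leukaemia libraries were matched to groups by their labels, and no 2 libraries of a group agreed within sampling noise.

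Genes passing edgeR's filterByExpr (12958 of 23284 rows) were tested with edgeR 4.0.16 (R 4.3.3) by the quasi-likelihood F test, two-sided, with TMM scaling, 1 term per group and all 12 libraries in the fit. P-values were Benjamini-Hochberg adjusted over all tested genes, with a threshold of 0.05. The common biological coefficient of variation was 0.253. CPM use TMM-scaled totals; unscaled totals were 16353584 to 23785307 counts. Errors are SEs from this fit of 3 libraries per group, so they also carry the spread of KO+EV and KO+s. With the 6 libraries alone the SE of Itga6 was 0.19 and not 0.49, and that of Camp 0.97 and not 0.84. Intervals of ratios are 95% exact and cover counting error only. The fit was tested on simulated counts. DESeq2 1.42.0, other scalings and filters, a replicate block, a fit of the 6 libraries alone and leaving out each library were the alternatives.

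The comparison and all 35 gene lists were chosen with earlier results of these data known, so lists are described by counts and medians and got no test. Genes were named by a rule: Prdm16, up to 12 called genes per direction with the largest log2 difference, a mean log2 CPM of at least 3 and groups that do not overlap, then up to 4 called genes per list, or 2 uncalled ones. Other called list members, and Hoxa9, Meis1, Kit, Flt3, Mpo, Ltf, S100a8, S100a9, Cd74, Cebpe, Cebpa, Sfpi1, Jun and the H2-DM genes, were added after their values were seen. Values of some genes are not reported here, while counts and medians over lists include them. Promoters are RefSeq's, from another build than the counts, and serve for sequence only.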

Additional observations from a re-analysis of the deposited data

How the results depend on the processing

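DESeq2 called 2069 genes between KO+f and WT+EV (1210 higher, 859 lower) against 1292 by edgeR, and with an absolute log2 difference of at least 1 required, 746 remained. With 1 library left out at a time the total ranged from 559 to 1071, the genes higher in KO+f from 346 to 711 and those lower from 203 to 377; such fits have fewer samples. Other scalings, filters and sample sets left each count within 1.5 times. Prdm16 was called in every alternative run. Replicate numbers did not pair the libraries: deviations of same-numbered KO+f and WT+EV libraries correlated at -0.058, -0.163 and 0.046, and some libraries correlated more with another number. With the replicate block 1210 genes were called, 752 higher and 458 lower. Of the 91 called genes under the naming rule, 51 stayed called without any one of the 6 libraries, 91 with DESeq2, 84 with the replicate block and 77 with no filter on low counts. Over the genes under the rule, the other called list members and all alternatives, 286 values lost their call, 8 gained one and none reversed. The scaling moved the median of all genes by less than 0.1. A group of 3 limits the test: genes read fewer than 10 times in wild type, such as Procr and Car1, have wide intervals.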

Other observations

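The genes below lie outside the gene lists and outside the rule for naming genes, and were chosen after their values were seen. Phlpp2, a protein phosphatase that restrains growth factor signalling, rose from 7.17, 5.11 and 2.26 CPM in WT+EV to 52.8, 69.8 and 34.2 CPM in KO+f (3.44 ± 0.52, adjusted p = 0.00378). Nlrc5, the class I counterpart of CIITA, rose from 2.74, 6.40 and 2.73 CPM to 22.9, 34.0 and 13.7 CPM (2.57 ± 0.44, adjusted p = 0.00592), and the class I-like gene H2-Q6, whose reads are uncertain because of near copies, by 4.92 ± 0.72 (adjusted p = 0.00315). The sphingosine-1-phosphate exporter gene Spns2 rose by 2.65 ± 0.33 (adjusted p = 0.00133), the peptidase gene Dpp4 by 2.26 ± 0.43 (adjusted p = 0.0101) and the glucocorticoid-responsive factor gene Klf9 by 2.13 ± 0.27 (adjusted p = 0.0015). All 6 genes stayed called without any one of the 6 libraries. Klf9 in KO+EV, at 13.3, 19.3 and 9.22 CPM, was above every WT+EV library (6.06, 6.04 and 5.18 CPM). KO+f minus KO+EV was not called for Klf9 (0.86 ± 0.26, adjusted p = 0.0545).

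Several abundant or evenly read genes were lower. The kinase gene Matk, which restrains SRC kinases, stood at 59.4, 49.4 and 80.8 CPM in KO+f, 262, 256 and 272 CPM in WT+EV and 181, 169 and 171 CPM in KO+EV (-2.06 ± 0.16 against WT+EV, adjusted p = 8.23e-05), and lower still in KO+s, at 24.3, 28.2 and 23.5 CPM (KO+f minus KO+s 1.32 ± 0.16, adjusted p = 0.00489). Ets1, an ETS transcription factor, stood at 61.4, 39.0 and 63.4 CPM in KO+f, 120.0, 159.8 and 228 CPM in WT+EV, 128, 158 and 192 CPM in KO+EV and 116, 108 and 125 CPM in KO+s. It was lower in KO+f than in WT+EV (-1.63 ± 0.25, adjusted p = 0.00333) and than in KO+s (-1.09 ± 0.24, adjusted p = 0.0348). The septin gene Sept5 was low in KO+f (6.37, 7.09 and 14.6 CPM) and KO+EV (14.2, 10.8 and 12.3 CPM) and high in WT+EV (50.4, 29.0 and 47.9 CPM) and KO+s (95.1, 49.9 and 69.5 CPM), with KO+f minus WT+EV at -2.18 ± 0.35 (adjusted p = 0.00413) and KO+f minus KO+s at -2.93 ± 0.35 (adjusted p = 0.00489). The myeloid surface receptor gene Cd33 stood at 195, 183 and 331 CPM in KO+f and 1255, 877 and 1419 CPM in WT+EV (-2.32 ± 0.50, adjusted p = 0.0171). This call was lost in 3 of the 6 fits that each left out 1 library (highest adjusted p 0.0711). Cd33 stood at 749, 616 and 167 CPM in KO+EV, overlapping KO+f, and at 93.2, 41.85 and 69.9 CPM in KO+s. Neither KO+f minus KO+EV (-1.11 ± 0.48, adjusted p = 0.155) nor KO+f minus KO+s (1.79 ± 0.49, adjusted p = 0.066) was called.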
